A study of Mus musculus with 6 samples.

Results

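The Hedgehog genes described here are the 3 ligand genes Shh, Ihh and Dhh, the receptor gene Ptch1, the signal transducer gene Smo, the transcription factor genes Gli1, Gli2 and Gli3, and Hhip, which encodes a ligand-binding inhibitor. They were chosen by name, and all 9 were measured among 19938 genes, each by 1 probe set that the platform annotation pairs with that gene symbol alone. RNA came from enterospheres, free-floating spheres of neural progenitor cells grown from the gut muscle of newborn C57BL/6 mice (P0, up to 12 hours old), with 3 mice per sample. All spheres grew for 4 days in wells and 5 more in dishes with EGF (10 ng/mL) and FGF (20 ng/mL), and then stood for 1 day in differentiation medium without either factor. The T3 group (3 samples) next received triiodothyronine, the thyroid hormone that binds the nuclear receptors, for 1 day at 100 nM, a unit that the labels write as nm. The control group (3 samples) was kept in the same medium without T3. The labels name no added Hedgehog ligand or Smo agonist, and nothing says whether the samples of a group were separate cultures from separate litters, so the p-values here reflect no more than the variation among these 6 samples.

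Hedgehog ligands are secreted lipid-modified proteins. They bind Ptch1, which without ligand holds Smo inactive. Active Smo, working at the primary cilium, shifts the balance of Gli2 and Gli3 from repressor towards activator forms. The activated pathway raises transcription of Ptch1, Gli1 and Hhip, so the levels of these 3 genes are commonly read as an output of the pathway. In the developing gut, the epithelium makes Shh and Ihh and the surrounding mesenchyme responds, while Dhh is a ligand of Schwann cells in peripheral nerve. In the frog Xenopus laevis, Shh is a known T3 response gene of the intestine.

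Values are log2 expression values of each array, and a gene was called changed at an adjusted p under 0.05 (limma, adjusted over all genes). The median of all probe sets lay between 6.09 and 6.15 on the 6 arrays, and 618 genes were called, 454 of them higher and 164 lower with T3. The first principal component, with 41.3% of the variance, separated the groups. The second, with 24.3%, placed control replicates 2 and 3 far apart, at -17.6 and 16.2, so the counts of called genes, the 9 Hedgehog genes, the named genes of the wider pathway and the Gli differences were also computed without each array. No pair of arrays was a duplicate. Probe sets differ in brightness, so levels are compared between samples for 1 gene and not between genes, and the files hold no detection calls. In whole spheres, fewer cells of a type and less RNA per cell cannot be told apart.

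The regions before the gene starts were searched for letters of known binding motifs. RefSeq promoter windows (GRCm38.p6) were held for 7 of the 9 Hedgehog genes and for Scube1 and Mycn, and the 250 bases before each start were used. No window was held for Shh, Gli1 or Sfrp1, so these genes were not searched. The motifs, on both strands, were GACCACCCA, bound by Gli proteins, its core ACCACCC, which overlaps it, and AGGTCA, the half-site of thyroid hormone receptors. Gli2 alone among these 9 windows held a match, to the core on the other strand, 205 bases before its start. Of 32851 windows of this length, 0.225% held GACCACCCA, 3.92% its core and 14.0% AGGTCA. A match is a description and not a site, and no match says only that these letters are not in this window. The windows are shown for Gli2 (chr1:119053620-119053869, minus strand) as the one with a match, in capitals, for Ptch1 (chr13:63565736-63565985, minus strand) as the target gene that codes for the receptor, and for Scube1 (chr15:83725040-83725289, minus strand) as the gene of the wider pathway that rose most with T3.
Gli2: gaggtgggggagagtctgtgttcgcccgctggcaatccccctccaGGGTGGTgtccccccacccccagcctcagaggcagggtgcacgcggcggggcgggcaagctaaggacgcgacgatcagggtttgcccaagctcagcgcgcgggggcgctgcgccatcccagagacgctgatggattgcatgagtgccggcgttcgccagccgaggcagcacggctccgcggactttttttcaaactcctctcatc
Ptch1: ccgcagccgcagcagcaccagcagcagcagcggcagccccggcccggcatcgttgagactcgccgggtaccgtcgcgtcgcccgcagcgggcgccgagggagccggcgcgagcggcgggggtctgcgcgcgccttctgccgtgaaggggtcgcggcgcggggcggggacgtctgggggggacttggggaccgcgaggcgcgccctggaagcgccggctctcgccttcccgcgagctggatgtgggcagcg
Scube1: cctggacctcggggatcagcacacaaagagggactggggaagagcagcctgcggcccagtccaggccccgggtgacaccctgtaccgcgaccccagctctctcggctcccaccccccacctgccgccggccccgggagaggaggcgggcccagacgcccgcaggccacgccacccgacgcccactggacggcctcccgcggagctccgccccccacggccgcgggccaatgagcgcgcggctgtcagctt

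None of the 9 Hedgehog genes passed the test (limma), against 3.10% of all genes, with 2.28% higher and 0.823% lower. Their adjusted p values (limma) ran from 0.201 for Gli1 to 0.975 for Ihh, and their log2 changes from -0.17 for Gli3 to 0.31 for Gli1. An unadjusted p under 0.05 was reached by 1 of the 9, Gli1, where 13.7% of all genes reached it. The median log2 change was 0.06 for the 9 genes and 0.0088 for all genes, and the median size of the change was 0.11 and 0.08. The T3 values lay wholly above the control values for 3 of the 9 genes, Ptch1, Smo and Gli1, and wholly below for none. Over all genes the groups separated in 1 direction or the other for 19.5%, with 11.9% above and 7.55% below.

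**Figure D1:**
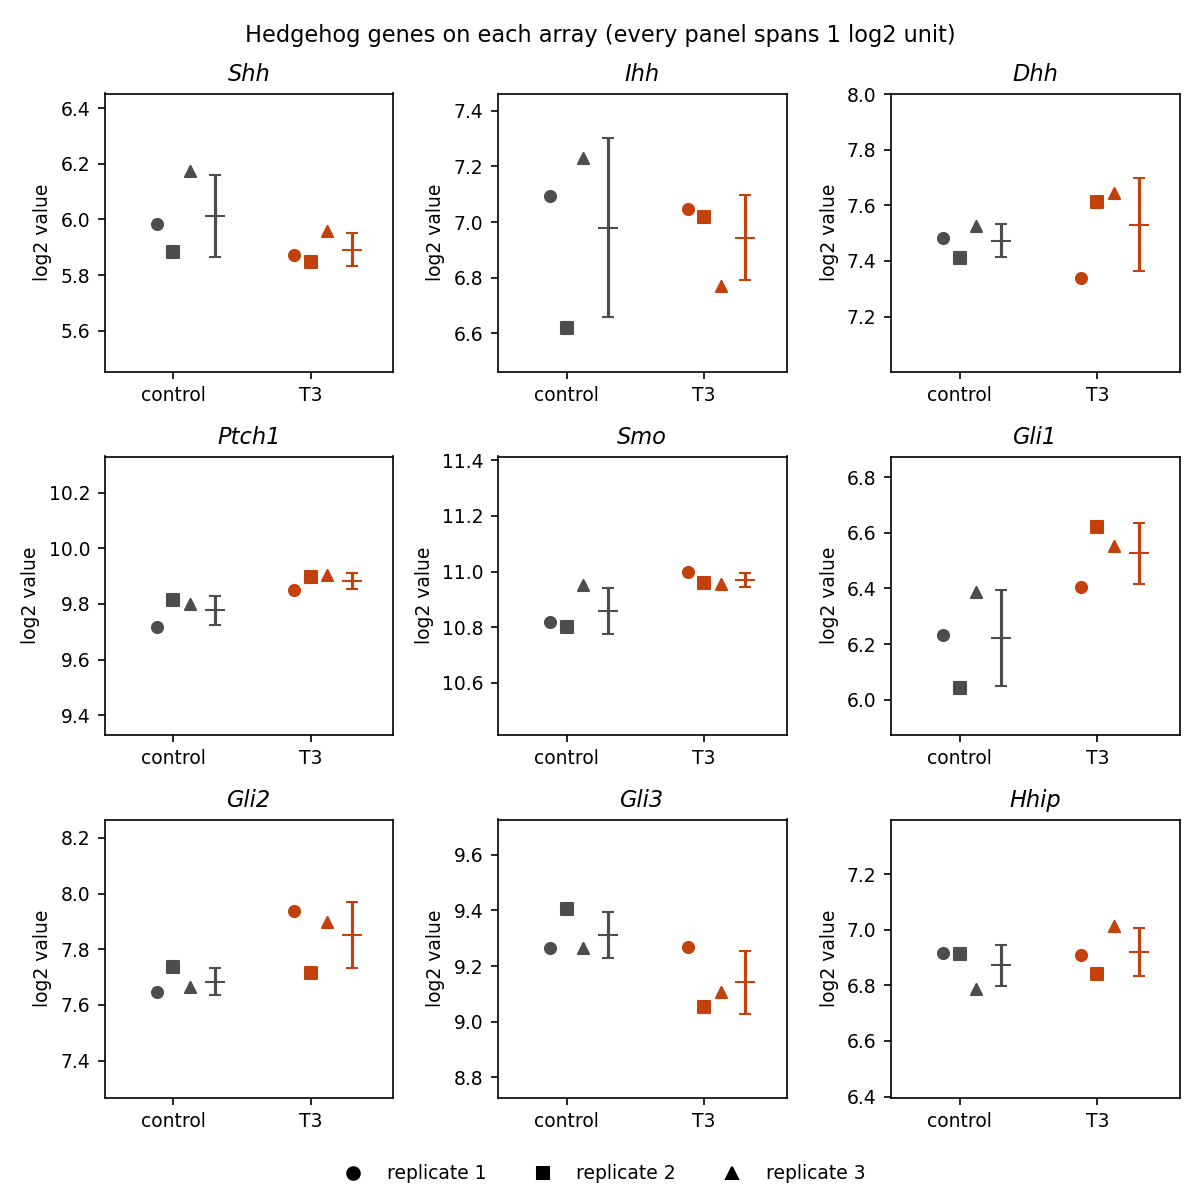
Log2 value of each Hedgehog gene on each of the 6 arrays, with controls in grey and T3 in orange, marker shapes for replicate numbers, and a bar for the mean ± SD (n = 3). Every panel spans the same height, and the T3 points of Gli1, Smo and Ptch1 lie above the control points, in the case of Smo by 10.954 against 10.952.

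Shh, the ligand that patterns the gut tube and limb, had log2 values of 5.98, 5.88 and 6.17 in controls and of 5.87, 5.85 and 5.96 with T3. The groups overlapped, with control replicate 3 highest and T3 replicate 2 lowest. The log2 change was -0.12 ± 0.09 (SE), and its 95% interval of -0.33 to 0.08 corresponds to 0.798- to 1.06-fold of the control signal (limma, adjusted p = 0.670). The control mean of 6.01 ± 0.15 (SD, n = 3) was under the median of every array, and it is not known whether this signal is above background.

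Ihh, the ligand of differentiating gut epithelium and of growing cartilage, stood at 7.09, 6.62 and 7.23 in controls and at 7.05, 7.02 and 6.77 with T3. It had the widest spread of the 9 genes, since control replicate 2 was the lowest array and control replicate 3 the highest. The log2 change of -0.04 ± 0.15 (SE) had a 95% interval of -0.39 to 0.32 (limma, adjusted p = 0.975), and its sign turned when T3 replicate 3, control replicate 1 or control replicate 3 was left out, to 0.05, 0.02 and 0.09.

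Dhh, the Schwann cell ligand that organises the perineurium, read 7.48, 7.41 and 7.52 in controls and 7.34, 7.61 and 7.64 with T3. T3 replicate 1 was the lowest of all arrays and the other two T3 arrays were the highest, so the groups overlapped. The log2 change was 0.06 ± 0.09 (SE) with a 95% interval of -0.16 to 0.27 (limma, adjusted p = 0.896).

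The cell types that make these ligands were followed by marker lists. The 7 epithelial markers, which include Epcam and Cdh1, had mean log2 values of 5.25 to 5.51 in controls and 5.37 to 5.46 with T3, below the median of every array, and none was called. Their summed signal on a linear scale was 328 to 387 in controls and 347 to 371 with T3. The brightest of the 7 epithelial markers, Krt8, had a control mean log2 value of 7.15, above the median of every array. The 4 measured glia and Schwann cell markers summed to 2823 to 3390 in controls and 2970 to 3067 with T3, and none was called. The part of these cell types in the ligand signal was not tested.

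Ptch1, the ligand receptor and a transcriptional target of the pathway, had log2 values of 9.72, 9.82 and 9.80 in controls and of 9.85, 9.90 and 9.90 with T3. All T3 arrays were above all control arrays by a narrow margin. The log2 change was 0.10 ± 0.07 (SE), a 1.08-fold difference in signal, and the 95% interval of 0.967- to 1.20-fold holds no change as well as a small rise (limma, adjusted p = 0.601). With array quality weights the call was made (log2 change 0.16, adjusted p = 0.0449), in a fit that gave control replicate 1 a weight of 6.18 and the other arrays 0.414 to 1.69.

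Smo, the membrane protein that carries the signal onward once Ptch1 has bound ligand, read 10.82, 10.80 and 10.95 in controls and 11.00, 10.96 and 10.95 with T3. The lowest T3 value, 10.954, exceeded the highest control value, 10.952, by less than the spread within either group. The log2 change was 0.11 ± 0.07 (SE) with a 95% interval of -0.05 to 0.28 (limma, adjusted p = 0.594).

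Gli1, an activator whose own transcription depends on pathway activity, was the Hedgehog gene with the largest difference. Its log2 values were 6.23, 6.04 and 6.39 in controls and 6.41, 6.62 and 6.55 with T3. The groups did not overlap, though T3 replicate 1 and control replicate 3 were almost level. The mean went from 6.22 ± 0.17 (SD, n = 3) to 6.53 ± 0.11 (SD, n = 3), and the log2 change of 0.31 ± 0.10 (SE) is a 1.24-fold difference with a 95% interval of 1.05- to 1.45-fold. The control mean was little above the array medians of 6.09 to 6.15, and Gli1 was among the dimmest 50% of genes. As for Shh, it is not known whether this signal is above background. The unadjusted p was 0.0167 and the adjusted p (limma) 0.201, and 6.60% of all genes had a larger change in either direction. At its standard error, Gli1 would have needed a log2 change of 0.47 to be called. The change lay between 0.22 and 0.39 when any 1 array was left out, with adjusted p up to 0.502, and array quality weights gave 0.34 with adjusted p = 0.00727, again with most weight on control replicate 1.

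Gli2, the main activator of the family and the gene whose promoter window held the core Gli motif, read 7.65, 7.74 and 7.66 in controls and 7.94, 7.71 and 7.90 with T3. T3 replicate 2 lay among the controls and the other two T3 arrays above them. The log2 change was 0.17 ± 0.08 (SE) with a 95% interval of -0.02 to 0.35 (limma, adjusted p = 0.429).

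Gli3, the main repressor of the family, read 9.26, 9.41 and 9.26 in controls and 9.27, 9.05 and 9.11 with T3. T3 replicates 2 and 3 lay below all controls, and T3 replicate 1 was level with control replicates 1 and 3. The log2 change was -0.17 ± 0.08 (SE) with a 95% interval of -0.36 to 0.02 (limma, adjusted p = 0.446).

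Hhip, which binds ligand at the cell surface and is itself a target gene, read 6.92, 6.91 and 6.79 in controls and 6.91, 6.84 and 7.01 with T3, and the groups overlapped. The log2 change of 0.05 ± 0.08 (SE) had a 95% interval of -0.13 to 0.22 (limma, adjusted p = 0.893). Of the 3 output genes, Gli1 thus had an interval wholly above 0 before adjustment, while those of Ptch1 and Hhip included 0. The upper bounds for Ptch1 and Hhip were 1.20-fold and 1.17-fold, and whether the change of Gli1 differs from theirs was not tested.

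**Figure D2:**
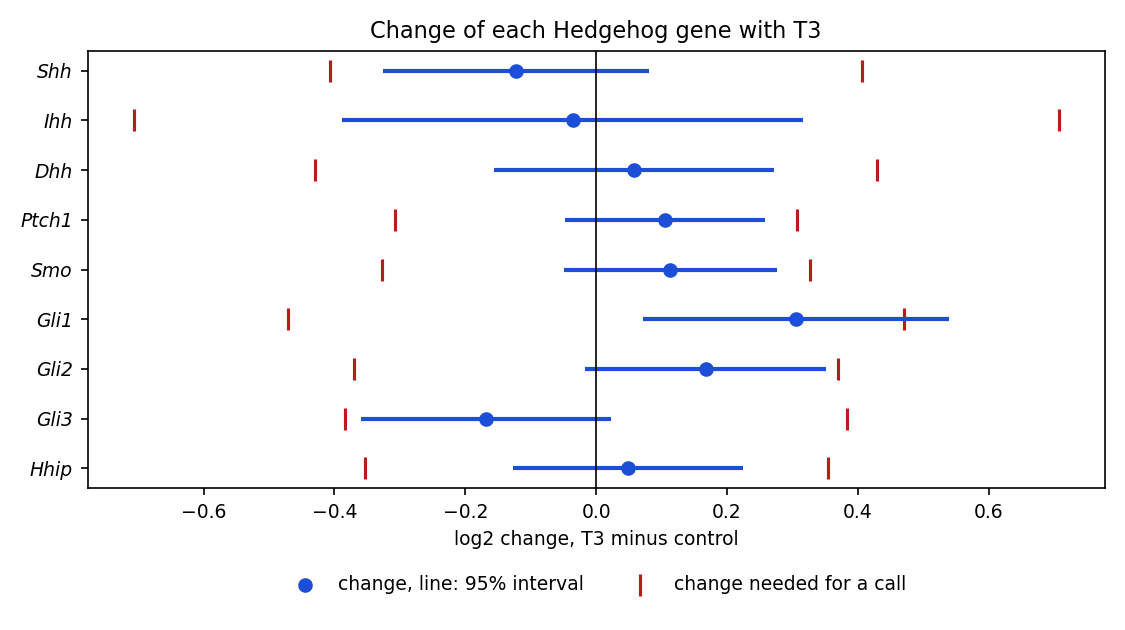
Log2 change (T3 minus control) of each Hedgehog gene, with points for the estimate, blue lines for the limma 95% interval (3 arrays per group) and red ticks for the change at which the gene would have been called. No point reaches its red tick, and the interval of Gli1, 0.07 to 0.54, is the one that lies wholly above 0.

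The estimates of Gli2 and Gli3 had opposite signs, so the 3 Gli genes were also compared within each array. This comparison was chosen after their values were seen, so it is given as a description. With 3 arrays per group, the exact two-sided test run on it cannot give a p under 0.1, so its p-values are not used. The log2 difference of Gli2 minus Gli3 was -1.62, -1.67 and -1.60 in controls and -1.33, -1.34 and -1.21 with T3. The groups did not overlap, which the opposite signs that led to the comparison favour, and their means were -1.63 ± 0.04 and -1.29 ± 0.07 (SD, n = 3 each), a shift of 0.34. Gli1 minus Gli3 shifted by 0.47, from -3.03, -3.36 and -2.88 to -2.86, -2.43 and -2.55, which separated narrowly. Gli1 minus Gli2 shifted by 0.14 and overlapped. Such differences cancel any shift common to a whole array. Over the alternatives, leaving out any 1 array included, the shift lay between 0.29 and 0.36 for Gli2 minus Gli3, between 0.34 and 0.60 for Gli1 minus Gli3 and between 0.02 and 0.24 for Gli1 minus Gli2. That of Gli1 minus Gli2 was 0.02 when either T3 replicate 2 or control replicate 2 was left out, and 0.24 and 0.23 when T3 replicate 1 or control replicate 3 was. Whether the 3 Gli genes differ in their change is not shown by these values.

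**Figure D3:**
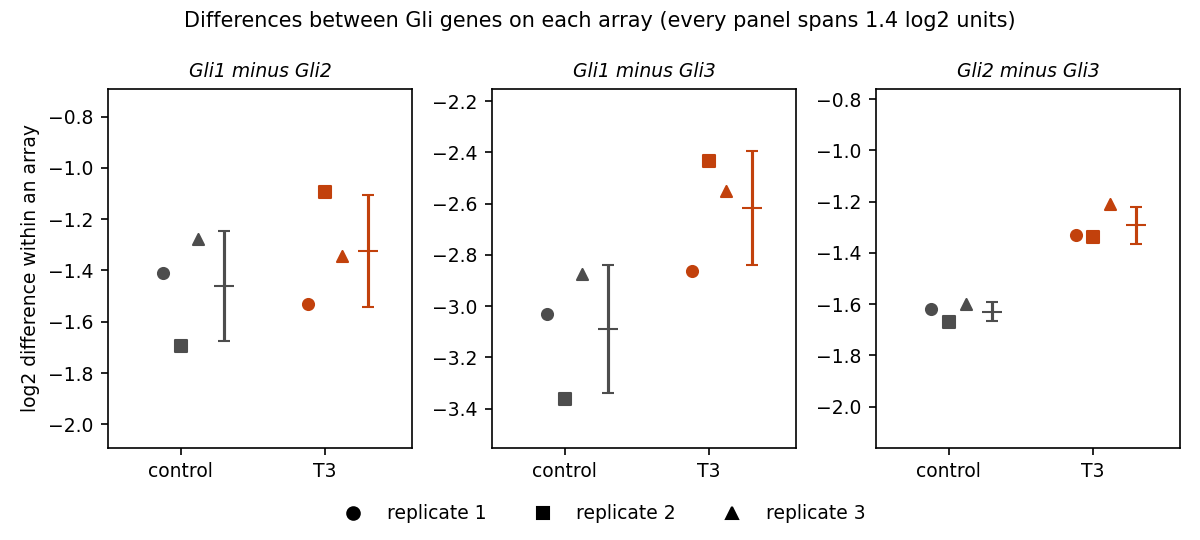
Log2 difference between Gli genes within each array, for controls (grey) and T3 (orange), with marker shapes for replicate numbers and bars for the mean ± SD (n = 3). Gli2 minus Gli3 sits near -1.63 on the control arrays and near -1.29 on the T3 arrays with no overlap, whereas Gli1 minus Gli2 overlaps.

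The genes whose log2 values followed Gli1 most closely over the 6 arrays were Shisa6, Gcg, Gpha2, 1810055G02Rik and Cox7a2, with Pearson r from 0.985 to 0.994. Of 19937 other genes, 55 had r over 0.95. These points share the arrays and the 2 groups, so the values are a description, and none of the 5 genes was called (adjusted p from 0.0958 for Gpha2 to 0.718 for 1810055G02Rik).

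Of the wider pathway, 48 genes were measured, and 3 rose while none fell at the same threshold, where 3.10% of all genes were called, 2.28% higher and 0.823% lower. They were Scube1, Mycn and Sfrp1. The median log2 change of the 48 genes was -0.0038, near the 0.0088 of all genes. At an unadjusted p under 0.05 (limma), 7 of the 48 were higher and 2 lower. Of all 19938 genes, 13.7% reached it, 1779 of them higher and 958 lower. Prkaca, Arl13b and Grk2 were not analysed here, as no probe set carried their single name.

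Scube1, whose secreted protein family helps to release lipid-modified ligands from the cells that make them, had log2 values of 8.16, 8.31 and 8.32 in controls and of 8.98, 8.96 and 8.90 with T3. Every T3 array was far above every control array. On the log2 scale it rose by 0.68 ± 0.07 (SE), or 1.61-fold (limma, adjusted p = 0.00281), and the call held without any 1 array (adjusted p up to 0.0209). Among the 6 measured genes of ligand processing and release it was the only one called, and Scube3 of the same family had a log2 change of -0.25 ± 0.09 (SE, limma, adjusted p = 0.266).

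The 14 measured genes reported as Hedgehog targets in various tissues held the other two called genes. Mycn, a transcription factor that Hedgehog signalling raises in cerebellar precursors of the mouse, went from 7.01, 6.96 and 7.19 in controls to 7.77, 7.60 and 7.64 with T3. The groups were clearly apart, and the log2 value rose by 0.62 ± 0.09 (SE), or 1.53-fold (limma, adjusted p = 0.00847). Sfrp1, a secreted inhibitor of Wnt signalling, went from 10.20, 10.27 and 10.30 to 10.70, 10.65 and 10.78, also without overlap. Its log2 value rose by 0.45 ± 0.07 (SE), or 1.37-fold (limma, adjusted p = 0.0136). The call of Mycn was lost without control replicate 1 (adjusted p = 0.0553), and that of Sfrp1 without T3 replicate 3 (0.0691) or control replicate 1 (0.0842), so that Scube1 alone was called without control replicate 1. The other 12 target genes did not pass, and the median of the 14 was 0.08. Both genes also respond to other pathways, and the part of Hedgehog signalling in their rise was not tested.

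Of the other groups no gene was called. Among 5 receptors and coreceptors, the ligand-binding coreceptor genes Gas1 and Boc had log2 changes of -0.12 and -0.08 (limma, adjusted p = 0.742 and 0.802). Among 15 genes of transduction and Gli control, Dyrk2, a kinase reported to act on Gli proteins, had a log2 change of 0.32 ± 0.08 (SE) and just missed the threshold (limma, adjusted p = 0.0699). It was called with array quality weights (adjusted p = 0.00143), after a renewed quantile normalization (0.0454) and without the dimmest 25% or 50% of genes (0.0490 and 0.0272). When any 1 array was left out, Dyrk2 was not called (limma, adjusted p from 0.0569 to 0.285). Gpr161, a ciliary receptor that opposes the pathway, was at -0.14 (adjusted p = 0.586). Among 8 genes of primary cilium transport, Rab34, a GTPase needed to form the cilium, had a log2 change of 0.30 ± 0.09 (SE, limma, adjusted p = 0.134), and Ift122, a subunit of the intraflagellar transport machinery, one of 0.19 (adjusted p = 0.418). Both were called with array quality weights (adjusted p = 0.00248 and 0.00801). Neither was called when any 1 array was left out (limma, adjusted p from 0.0555 to 0.43 for Rab34 and from 0.30 to 0.85 for Ift122). The fit with array quality weights called 3548 genes over all and put most weight on control replicate 1.

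**Figure D4:**
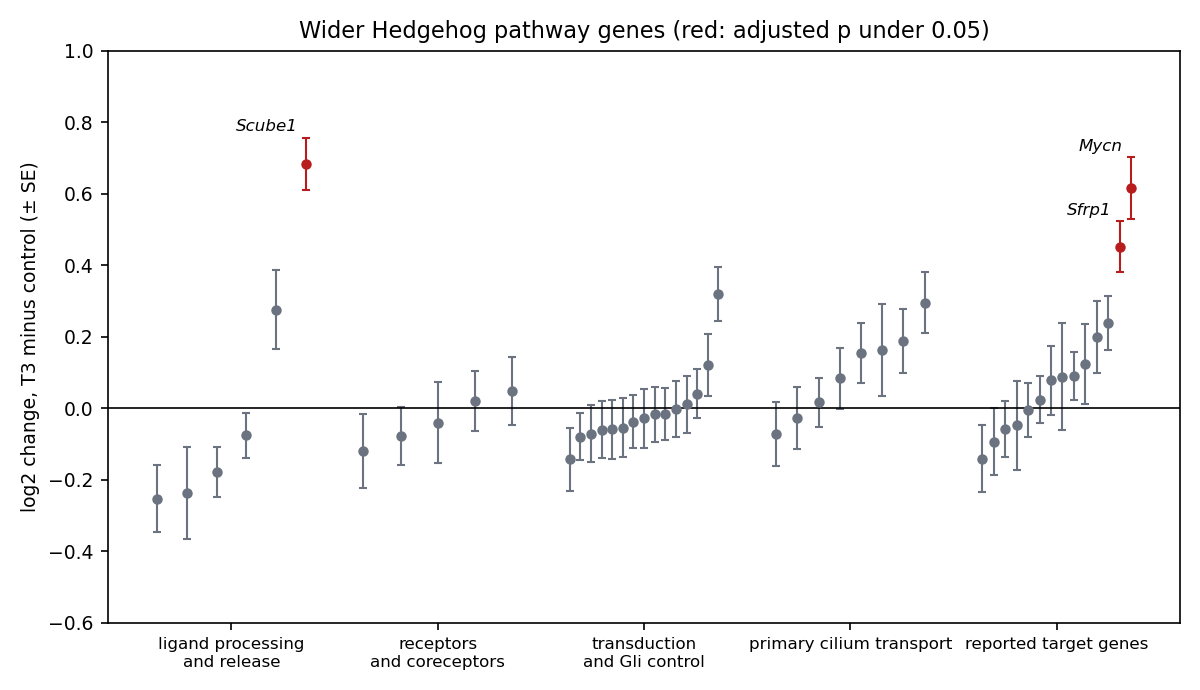
Log2 change (T3 minus control) ± SE of the 48 measured genes of the wider Hedgehog pathway, in 5 groups by role and ordered by change within a group, with called genes in red. Scube1 at 0.68, Mycn at 0.62 and Sfrp1 at 0.45 stand above the rest, which lie between -0.25 and 0.32.

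Markers of the cells that could carry the pathway gave these levels. The 7 enteric neural progenitor markers had mean log2 values of 11.37 to 11.41 in controls and 11.31 to 11.45 with T3, with none called, and the mean of each of these markers lay above the 75th percentile of every array. The 9 fibroblast and mesenchyme markers summed to 18130 to 19450 on a linear scale in controls and 17830 to 18560 with T3, with 1 lower (Twist1) and none higher. Their mean log2 value was 10.55 to 10.66 in controls and 10.46 to 10.51 with T3. Each of them except Twist1 also had a mean above the 75th percentile of every array. The 7 smooth muscle markers summed to 1852 to 2067 in controls and 1710 to 1786 with T3, while their mean log2 value was 7.18 to 7.33 in controls and 7.31 to 7.41 with T3, so the direction turned with the scale. Of these 7 genes, 2 were called higher and 2 lower, and the median log2 change was 0.28, with 5 of them above 0. The 8 neuron markers summed to 9712 to 11020 in controls and 11500 to 12230 with T3, with 2 called higher. The called genes, Prph and Snap25, had log2 changes of 0.94 and 0.33, and Nefl and Stmn2 had 0.71 and 0.25. Those of Elavl4, Elavl3, Tubb3 and Uchl1 were 0.02, -0.13, 0.03 and -0.02, so the list did not rise as a whole. Of the dimmer lists, endothelium had 1 gene called lower of 5, though 4 of the 5 had a log2 change above 0 and the median was 0.15. Neither mesothelium (4 genes) nor macrophages and leukocytes (5 genes) had a called gene. The part of these cell types in the values of the Hedgehog genes was not tested.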

How the data were processed

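Total RNA of 6 samples was hybridised to 1 Affymetrix array each. The authors deposited log2 expression values for 35556 probe sets, and the submitters' processing notes name RMA and Partek version 6.5. Settings and genome build are not stated there. RMA as usually run aligns array distributions, which removes a change common to most genes, and compresses differences of dim genes. In the platform annotation 21789 probe sets had a single symbol, 1621 had several and 12146 had none. A gene with several probe sets was read from its brightest (mean of the 6 arrays), which left 19938 genes. T3 minus control was fitted with limma 3.58.1 in R 4.3.3 (lmFit, eBayes, no dim filter, no block), with two-sided p-values adjusted by Benjamini and Hochberg over the 19938 genes. SE and 95% intervals are limma's, and the intervals are not adjusted for the number of genes. With 3 arrays per group, precision is limited. The script was tested on simulated data. The Hedgehog genes and lists were chosen with earlier results of these data known. Of the wider list the text names each called gene and up to 2 genes of smallest p per role, and for the Hedgehog gene of smallest p the 5 genes of highest r. Twist1, Krt8 and the 8 neuron markers were named after their values were seen. Alternatives were the replicate block, 3 scalings, 2 dim filters, 2 treatments of probe sets, trend and robust fitting, array weights and leaving out each array.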

Additional observations from a re-analysis of the deposited data

How the results depend on the processing

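Over all genes, 618 were called, and leaving out 1 array gave 191 to 640. It was 395, 262 and 256 when T3 replicate 1, 2 or 3 was dropped, and 191, 640 and 405 when control replicate 1, 2 or 3 was. The count of called Hedgehog genes was 0 in every fit but that with array quality weights. With those weights, 3548 genes over all, 2 Hedgehog genes (Gli1 and Ptch1) and 10 genes of the wider pathway were called, where control replicate 1 had a weight of 6.18 against 0.414 to 1.69 for the others. The wider pathway count of 3 was 1 to 3 without 1 array, lowest without control replicate 1. Same-numbered arrays of the 2 groups had deviations correlated at 0.179, 0.0171 and 0.000167, so the numbers are not taken to pair the samples, and each array did not always correlate best with its own number. With the replicate block, 472 genes over all, 0 Hedgehog genes and 3 genes of the wider pathway were called. Each of the 19 genes followed singly had a single probe set, so both treatments of probe sets kept its log2 change. The replicate block, trend and robust fitting and the 2 dim filters kept it too. Direction could not turn in these fits, and only the call could change. Of 299 values of 19 single genes under the alternatives, 284 kept direction and side of the threshold, 3 lost the call, 8 gained one and 4 turned direction. Those that turned were Ihh, which had a log2 change of -0.22 to 0.089 over the fits without 1 array (0.052 for T3 replicate 3 left out, and 0.020 and 0.089 for control replicate 1 or 3), and Boc, at 0.037 with array quality weights. The causes were not tested. Centring arrays on the median or the 75th percentile moved the median change of all genes by 0.03 and -0.02. Without the dimmest 50% of genes, 5 of the 9 Hedgehog genes were still tested, and Gli1, Shh, Ihh and Hhip were not.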
